A study of Mus musculus with 51 samples.

Results

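The 9 genes described here encode transcription factors that turn neural progenitors toward a neuronal fate: Neurog1, Neurog2, Atoh1, Neurod1, Neurod2, Neurod4, Neurod6, Eomes and Insm1. They were chosen by name from the 22359 protein-coding genes on mouse chromosomes 1 to 19, X and Y. The choice used no threshold on a measured value, but it was made with earlier results of these data known. The window of each gene was its body plus 20 kb on each side in mm9. A peak belonged to a gene when it overlapped that window, and 180 peaks did so, 35 of H3K27ac and 145 of H3K4me1. The 9 windows cover 401 kb in all.

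The series follows astroglial differentiation in vitro and holds 51 samples, of which 12 are used here. Both marks were measured by ChIP-seq, in which chromatin fragments carrying a histone mark are pulled down with an antibody and sequenced, at 3 stages with 2 replicates per stage and mark. The cells were of C57/BL-6 background and came from mouse embryonic stem cells. Astrogliogenic neural precursors (aNPC) were kept in medium with N2, EGF and FGF-2, early astrocytes (eA) had spent 1 day and late astrocytes (lA) 5 days in DMEM with 1% FBS and LIF, and no genetic change or siRNA was part of these groups. Each replicate pair had been merged before peaks were called, so there was 1 list per stage and mark, a difference between stages had no replicate error, and no test between stages was made. The differentiating populations are cultures, so fewer cells carrying a mark and less of the mark per cell cannot be told apart.

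Most of these factors have a basic helix-loop-helix domain and bind E-boxes as dimers with the widely expressed E proteins. They switch on Notch ligands, their own successors and the genes of neuronal differentiation, and in progenitors they are held down by the Hes repressors and the Id proteins, which favour the progenitor and glial states. Monomethylation of histone H3 at lysine 4 (H3K4me1) marks enhancers and the flanks of promoters, whereas acetylation at lysine 27 (H3K27ac) accompanies their active state. A site with H3K4me1 and without H3K27ac is commonly called primed or poised. In cortical development Neurog2 acts in radial glia, Eomes and Insm1 in intermediate progenitors, and the Neurod factors in differentiating neurons.

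As a check of the labels, the promoters of marker genes were examined. The promoter is the stretch from 1 kb upstream to 100 bp downstream of any coding start site of a gene in GENCODE, and it holds a peak when at least 1 bp overlaps. H3K27ac lay at the promoters of 5 of 5 progenitor markers (Nes, Sox2, Pax6, Vim and Fabp7) at every stage. Of 8 astrocyte markers, 6, 5 and 6 were acetylated at the aNPC, eA and lA stages. Gfap, Slc1a3, Slc1a2, Aldoc and Cd44 were acetylated at all stages and Aqp4 only in lA. S100b went the other way, with H3K27ac in aNPC only, and Aldh1l1 had neither mark at any stage. Of 5 neuronal markers with a match in the annotation, 2 were acetylated in aNPC (Tubb3 and Syt1) and 1 in eA and in lA (Tubb3). None of 3 pluripotency markers carried either mark. Promoter H3K27ac lay at 50.6, 53.2 and 48.2% of all coding genes in aNPC, eA and lA. The astrocyte counts are not far from these shares, and the marker counts do not tell the 3 stages apart. The lists hold 79413 to 92700 peaks of H3K27ac and 154238 to 208333 of H3K4me1, and their sequencing depth is unknown. The −log10 q of a peak, which MACS2 gives as its significance, was therefore read only within its own list, as a value or as a percentile among the peaks of that list. Without an input library or the reads, the absence of a peak means that none was called.

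The 250 bases upstream of the start site are shown first for Neurog1, Neurog2 and Atoh1, which had H3K4me1 and no H3K27ac at their promoters at all stages, and then for Neurod1, Insm1 and Eomes, which were acetylated there in aNPC. They were read from the NCBIM37 (mm9) genome on the strand of the gene. The stretch of Neurod1 is 216 bases long because an annotated exon of Cerkl lies over the rest. Capitals mark exact matches, on either strand, to 4 motifs: CAGATG, the E-box preferred by Neurog, Neurod and Atoh1 factors, CAGCTG, another E-box, CACGCG, a site of Hes repressors, and TTGGCA, the half-site of nuclear factor I. No motif contains another.
Neurog1, chr13:56353525-56353774, strand -: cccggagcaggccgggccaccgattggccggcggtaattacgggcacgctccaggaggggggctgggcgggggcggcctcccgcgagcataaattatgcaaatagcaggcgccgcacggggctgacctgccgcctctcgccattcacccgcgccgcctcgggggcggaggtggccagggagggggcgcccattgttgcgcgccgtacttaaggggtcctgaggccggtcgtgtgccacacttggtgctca
Neurog2, chr3:127335804-127336053, strand +: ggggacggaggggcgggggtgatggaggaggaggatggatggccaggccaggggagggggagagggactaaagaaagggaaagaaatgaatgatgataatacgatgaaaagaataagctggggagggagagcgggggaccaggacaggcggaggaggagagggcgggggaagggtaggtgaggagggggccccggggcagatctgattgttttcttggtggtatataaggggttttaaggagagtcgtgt
Atoh1, chr6:64678890-64679139, strand +: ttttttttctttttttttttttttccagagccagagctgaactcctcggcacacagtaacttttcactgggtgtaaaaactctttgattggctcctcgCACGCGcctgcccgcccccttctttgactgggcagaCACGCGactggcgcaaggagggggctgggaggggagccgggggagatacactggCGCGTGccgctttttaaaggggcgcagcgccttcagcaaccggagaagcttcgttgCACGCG
Neurod1, chr2:79296943-79297158, strand -: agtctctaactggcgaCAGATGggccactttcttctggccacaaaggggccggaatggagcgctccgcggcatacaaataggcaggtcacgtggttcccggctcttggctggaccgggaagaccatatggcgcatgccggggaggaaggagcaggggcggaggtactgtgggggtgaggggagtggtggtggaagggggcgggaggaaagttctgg
Insm1, chr2:146047407-146047656, strand +: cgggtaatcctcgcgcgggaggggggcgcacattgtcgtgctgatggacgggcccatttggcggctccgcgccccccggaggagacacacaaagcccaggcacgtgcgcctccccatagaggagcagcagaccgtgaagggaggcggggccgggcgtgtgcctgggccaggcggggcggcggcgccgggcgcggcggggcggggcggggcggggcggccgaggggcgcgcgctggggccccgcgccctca
Eomes, chr9:118387080-118387329, strand +: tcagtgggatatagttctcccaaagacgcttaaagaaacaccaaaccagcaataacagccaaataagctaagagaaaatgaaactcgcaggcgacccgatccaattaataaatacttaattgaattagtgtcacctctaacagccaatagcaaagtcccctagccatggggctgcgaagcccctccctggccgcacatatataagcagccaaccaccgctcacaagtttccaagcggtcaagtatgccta

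Atoh1 had 4 matches to CACGCG in these 250 bases, and no other of the 9 genes had any. Over all coding genes, 9.64% held the motif in the same stretch. The CAGATG match printed for Neurod1 was 1 of 2 among the members, Neurod2 being the other, beside 12.8% of coding genes. TTGGCA lay upstream of Neurod2 and Neurod6 (11.4% of coding genes) and CAGCTG upstream of none of the 9 (11.7%). The absence of a match says only that these letters are not in this stretch.

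H3K27ac was scarce at the promoters of the proneural genes and was lost from those that had it. In aNPC it lay at 3 of 9 promoters (Neurod1, Eomes and Insm1), where 50.6% of coding genes had it. In eA it lay at 1 of 9 (Eomes, against 53.2%), and in lA at none of the 9 (against 48.2%). Of the coding genes acetylated at the promoter in aNPC, 10.0% had no such peak in lA, and all 3 of the acetylated members were among them. H3K4me1 was more frequent: it lay at 8 of 9 promoters in aNPC (55.4% of coding genes), at 8 of 9 in eA (53.6%) and at 6 of 9 in lA (52.7%). Neurod2 lacked it at every stage, and Neurod4 and Neurod6 had lost it in lA. Of the 8 members with promoter H3K4me1 in aNPC, 6 kept it in lA, beside 87.9% of the coding genes that had it in aNPC.

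**Figure D1:**
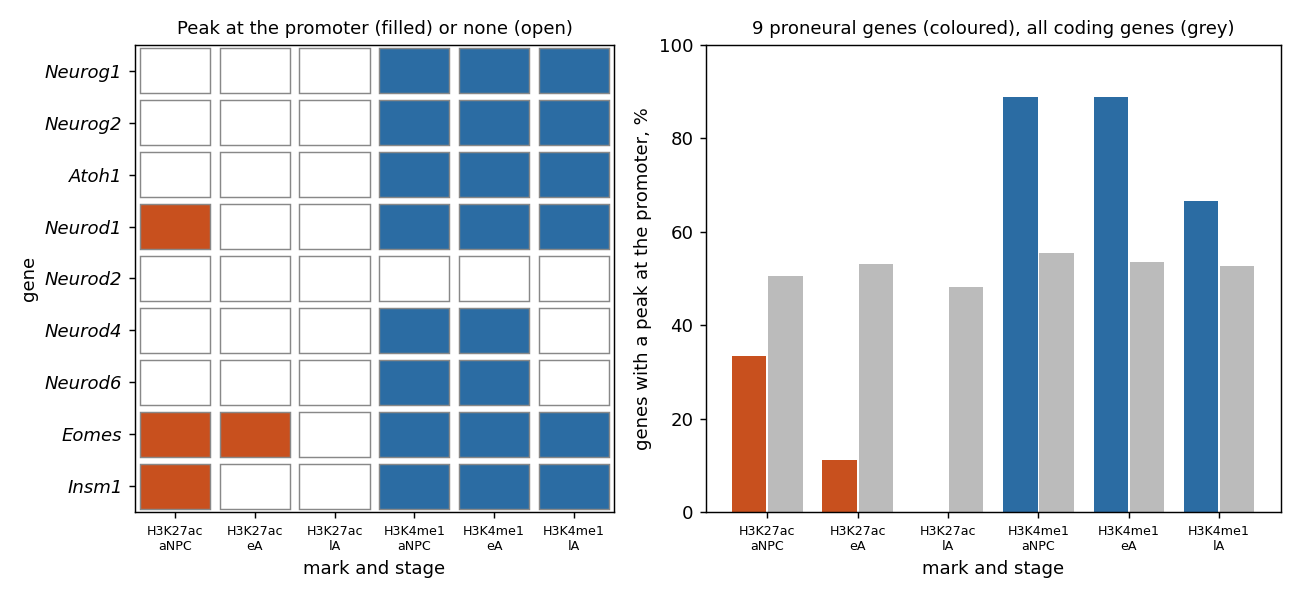
Left, presence (filled) or absence (open) of a peak at the promoter of each gene, by mark and stage, with H3K27ac in orange and H3K4me1 in blue. Right, percentage of genes with a promoter peak among the 9 proneural genes (coloured) and among 22359 coding genes (grey): H3K27ac stood at 3, 1 and 0 of the 9 genes and H3K4me1 at 8, 8 and 6 in aNPC, eA and lA.

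The combination of H3K4me1 with no H3K27ac at the promoter was found in 5 of 9 members in aNPC, 7 of 9 in eA and 6 of 9 in lA, where the shares of coding genes were 11.8%, 9.85% and 13.5%. Neurog1, Neurog2 and Atoh1 had it at all 3 stages, a pattern over both marks that 1209 coding genes shared (5.41%). Neurod1 and Insm1 lost H3K27ac after aNPC and kept H3K4me1, as 175 coding genes did (0.783%). Eomes kept H3K27ac into eA and H3K4me1 throughout (564 coding genes, 2.52%). Neurod4 and Neurod6 had H3K4me1 in aNPC and eA, then neither mark (221 coding genes, 0.988%). Neurod2 had neither mark at any stage, the state of 7632 coding genes (34.1%). With a promoter of 1 kb on either side of the start site, Neurod2 counted as bearing H3K4me1 at all stages and Insm1 as bearing H3K27ac in eA.

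H3K4me1 commonly flanks an active start site and leaves the site itself bare. Among coding genes with H3K4me1 and H3K27ac at the promoter, an H3K4me1 peak covered a start site in 32.3, 34.6 and 27.8% at the aNPC, eA and lA stages. Where H3K27ac was absent it covered a start site in 75.9%, 68.9% and 62.8%. The members without promoter H3K27ac had their start site covered in 5 of 5 cases in aNPC, 6 of 7 in eA and 5 of 6 in lA, Insm1 being the exception at the later stages. The acetylated members had a covered start site in 2 of 3 cases in aNPC and 1 of 1 in eA.

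Neurog1 (chr13:56351866-56353524, strand -) and Neurog2 (chr3:127336054-127338549, strand +), the neurogenins that commit progenitors to the neuronal lineage in sensory ganglia and in the dorsal telencephalon, had no H3K27ac peak in their windows at any stage. Their H3K4me1 lay mainly at the promoter and at a site upstream. The promoter peak of Neurog1 was 1741, 1824 and 1679 bp wide at the successive stages, and its −log10 q of 35.5, 43.3 and 41.8 lay at the 92.4th, 98.5th and 99.3rd percentile of its list. A second peak stood 6.6 kb upstream of Neurog1 in aNPC (1051 bp, −log10 q of 19.4), 6.9 kb in eA (1162 bp, 27.2) and 6.6 kb in lA (1164 bp, 18.3). These summit distances differ because the summit moved within overlapping peaks. Smaller peaks appeared 8.2 to 8.6 kb upstream, 1 in eA and 2 in lA, with −log10 q of at most 5.05.

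At Neurog2 the promoter peak covered the start site and most of the gene (chr3:127335269-127337674 in aNPC) and measured 2406, 2358 and 2240 bp from aNPC to lA. It was the widest promoter H3K4me1 peak of any member at every stage and lay at the 99.7th, 99.6th and 99.5th percentile of the widest promoter peaks of coding genes. Its −log10 q was 66.8, 43.5 and 35.0, at the 99.6th, 98.5th and 98.2nd percentile of all H3K4me1 peaks in its list. A distal peak 7.5 kb upstream was found at all stages (707, 700 and 555 bp). A weak peak 19.2 kb downstream was found in aNPC alone, with a −log10 q of 3.08 at the 4.35th percentile of its list.

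Atoh1 (chr6:64679140-64681227, strand +), which drives the formation of cerebellar granule neurons and of hair cells, had 3 separate promoter H3K4me1 peaks in aNPC (193, 360 and 1018 bp). They formed a single peak of 1427 bp in eA, with nothing at the most upstream of the 3, and a single peak of 1920 bp overlapping all of them in lA. The widest single promoter peak of Atoh1 went from the 75.1st percentile of coding genes in aNPC to the 91.6th in eA and the 98.6th in lA. The stretch spanned did not widen: the 3 aNPC peaks together reached from 64677994 to 64679998 and the lA peak from 64677981 to 64679900. No promoter H3K27ac was called. Downstream of the gene, 5.5 kb from the start site, H3K4me1 stood at all stages, in peaks of 875, 1058 and 1216 bp with −log10 q of 30.5, 32.6 and 25.9. Atoh1 was the only member with H3K27ac in its window at a later stage and none in aNPC. Within this downstream H3K4me1 site a peak of 155 bp was called in eA (−log10 q of 5.00, the 23.8th percentile of its list) and a peak of 227 bp in lA (5.08, the 25.1st percentile). These 2 acetylated peaks did not overlap each other. The region 3′ of Atoh1 is known for an enhancer that Atoh1 itself binds. Both peaks are printed whole on the plus strand, with the same 4 motifs in capitals, since they are the acetylation gained in the window of Atoh1.
Atoh1 downstream peak in eA, chr6:64684658-64684812, strand +: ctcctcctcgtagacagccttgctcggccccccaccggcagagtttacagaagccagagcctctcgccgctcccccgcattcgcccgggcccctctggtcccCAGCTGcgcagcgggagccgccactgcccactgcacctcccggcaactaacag
Atoh1 downstream peak in lA, chr6:64684178-64684404, strand +: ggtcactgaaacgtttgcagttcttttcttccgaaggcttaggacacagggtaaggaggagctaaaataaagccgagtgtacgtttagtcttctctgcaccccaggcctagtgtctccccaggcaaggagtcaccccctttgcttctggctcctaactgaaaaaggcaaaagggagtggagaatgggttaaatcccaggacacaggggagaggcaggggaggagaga

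The peak of eA held 1 match to CAGCTG, and that of lA held no match to any of the 4 motifs. In the 200 bp around the summit, the H3K4me1 peak at the same place held 1 CAGCTG and 1 CACGCG at all 3 stages.

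**Figure D2:**
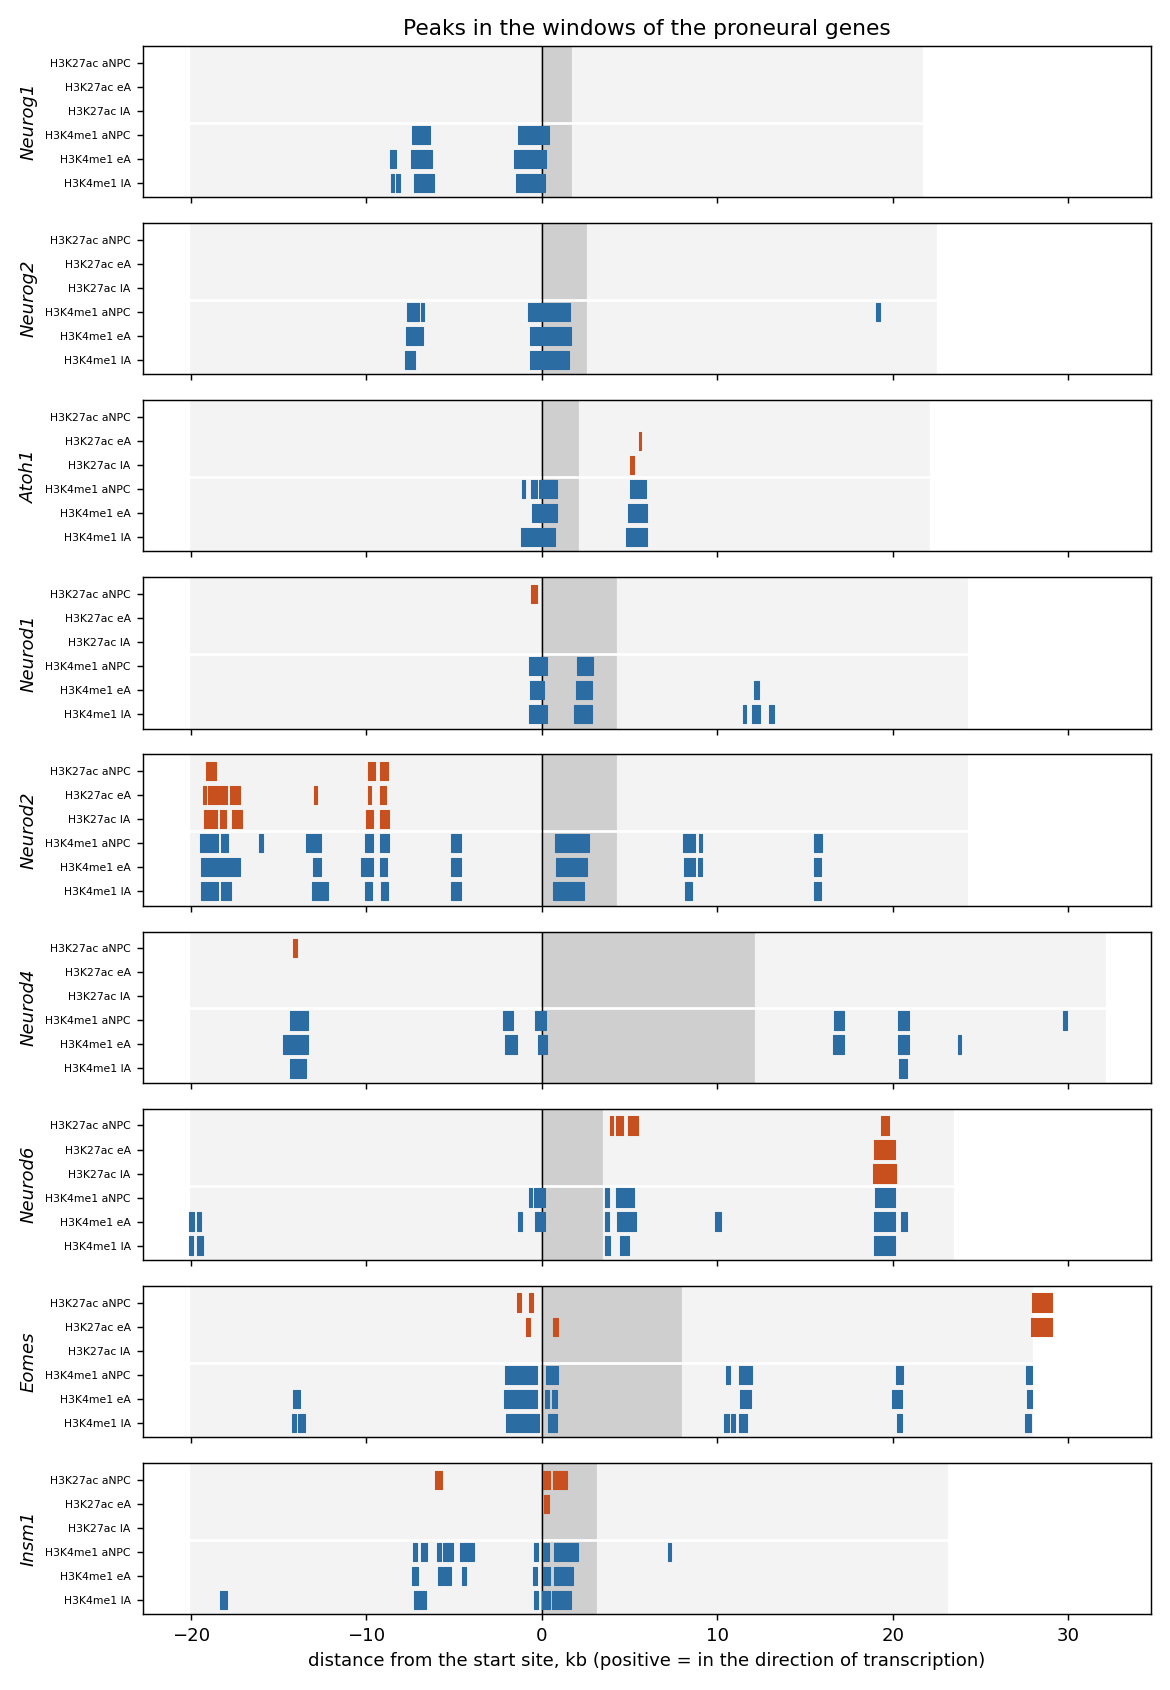
Peaks in the window of each gene, by distance from the start site in kb, with transcription running to the right. The rows of a panel give H3K27ac (orange) and H3K4me1 (blue) in aNPC, eA and lA; light grey is the window, dark grey the gene body and the black line the start site. H3K27ac was absent from the windows of Neurog1 and Neurog2 and, at the promoters, from every gene in lA.

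Neurod1 (chr2:79292678-79296908, strand -), which drives the terminal differentiation of neurons and of endocrine cells, had a single H3K27ac peak in its window, at the promoter in aNPC. It was 369 bp wide, its summit lay 0.4 kb upstream of the start site and its −log10 q was 6.03, the 31.2nd percentile of the list. H3K4me1 covered the start site at all stages (1050, 810 and 1013 bp), and another H3K4me1 peak lay in the gene body at all stages (903, 957 and 1013 bp). Beyond the gene, 12.3 kb from the start site, an H3K4me1 peak was called in eA (−log10 q of 5.60). In lA there were 3 peaks between 11.6 and 13.1 kb, the strongest 12.1 kb away with a −log10 q of 17.7, the 81.8th percentile. These sites had no H3K4me1 in aNPC and no H3K27ac at any stage. The gene body of Cerkl reaches into this window.

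Neurod2 (chr11:98186729-98190962, strand -) and Neurod6 (chr6:55627812-55631257, strand -), which act in differentiating and mature cortical excitatory neurons, were the members with distal H3K27ac at every stage. At Neurod2 an acetylated site 9.0 kb upstream had a −log10 q of 46.3 in aNPC (the 83.2nd percentile of its list), 23.5 in eA (73.6th) and 12.6 in lA (66.5th). Another lay 9.7 kb upstream in aNPC and at overlapping positions later, nearer to the start site of Ppp1r1b than to that of Neurod2. Apart from a weak peak 12.9 kb upstream in eA (−log10 q of 4.45), the other acetylated peaks of the window lay at or next to the promoter of Ppp1r1b, a neighbouring gene that encodes an inhibitor of protein phosphatase 1. The promoter of Ppp1r1b carried both marks at all stages. Neurod2 had 12 H3K4me1 peaks in aNPC, the most of any member at that stage, and 9 in eA and in lA, as did Neurod6 in eA and Eomes in lA. The broadest of its aNPC peaks lay inside the gene, 1.4 kb from the start site, and was 1971 bp wide (the 99.3rd percentile of its list). Downstream sites 8.4 and 15.6 kb from the start site had H3K4me1 at all stages and no H3K27ac at any.

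At Neurod6 a site 19.7 kb downstream, near the edge of the window, had H3K27ac in aNPC (467 bp), eA (1207 bp) and lA (1306 bp). H3K4me1 was present there at each stage (1159, 1156 and 1210 bp). Closer to the gene, 3 H3K27ac peaks at 4.0, 4.5 and 5.3 kb, just beyond its 3′ end, were found in aNPC alone, with −log10 q of 3.39, 5.52 and 11.3. The H3K4me1 peak at this place was 1025 bp wide in aNPC and 1070 bp in eA, and in lA 2 narrow peaks of 211 and 235 bp remained. Neurod6 had promoter peaks of 596 and 211 bp in aNPC and a single one of 523 bp in eA, with a −log10 q of 4.32 in eA, and none was called in lA.

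Neurod4 (chr10:129705209-129717296, strand -), which acts in retinal and hindbrain neurogenesis, had a single H3K27ac peak in its window. It lay 14.1 kb upstream, was found in aNPC only and had a −log10 q of 5.38, the 25.9th percentile. The H3K4me1 peak around it was among the stronger ones of aNPC and eA, with −log10 q of 45.7 (97.0th percentile) and 45.5 (98.8th). In lA its −log10 q was 11.4, the 63.0th percentile of that list. The window held 7, 6 and 2 H3K4me1 peaks at the aNPC, eA and lA stages, and the peaks absent in lA included those at the promoter and 1.8 kb upstream. The promoter peak over the start site was 406 bp in aNPC and 518 bp in eA. A second promoter peak of 168 bp lay 0.3 kb upstream in aNPC only. When peaks with a −log10 q under 5 were left out, Neurod4 and Neurod6 had no promoter H3K4me1 in eA, and the count at that stage was 6 of 9.

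Eomes (chr9:118387330-118395250, strand +), the T-box factor of intermediate progenitors, was the member with promoter H3K27ac at 2 stages. In aNPC the peak lay 0.6 kb upstream (237 bp, −log10 q of 6.71), with another 1.3 kb upstream (226 bp, 4.74). In eA it lay 0.8 kb upstream (236 bp, 7.11), and a second peak 0.8 kb downstream overlapped the promoter of another of the 3 annotated start sites (284 bp, 7.85). No H3K27ac was called in its window in lA. H3K4me1 upstream of the start site formed a broad peak of 1775, 1914 and 1892 bp at the successive stages. Promoter H3K4me1 downstream of the most upstream start site measured 717 bp in aNPC, 255 and 297 bp in eA and 489 bp in lA. H3K4me1 also stood 11.4 kb downstream in aNPC (712 bp, −log10 q of 19.1). That downstream site was found in eA and in lA too, where its −log10 q of 35.5 was at the 98.3rd percentile of the list. A site about 14.1 kb upstream had H3K4me1 in eA and lA and not in aNPC. The strong H3K27ac peaks at the far end of the window in aNPC and eA, with −log10 q of 87.1 and 79.7, lay at the promoter of Golga4, which encodes a Golgi protein. The corresponding peak of lA began just outside the window.

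Insm1 (chr2:146047657-146050752, strand +), a zinc-finger factor of intermediate progenitors and neuroendocrine cells, had the strongest promoter acetylation of the 9 genes in aNPC. Its H3K27ac peak 0.3 kb downstream of the start site was 374 bp wide with a −log10 q of 33.4 (78.2nd percentile), and a second stood 1.0 kb downstream (822 bp, at the 68.6th percentile). Another peak, 6.0 kb upstream, was weak (−log10 q of 3.18). In eA a single H3K27ac peak of 279 bp remained 0.2 kb downstream with a −log10 q of 3.72, the 11.4th percentile of its list. It began just beyond the promoter limit and was counted in the gene body. None was called in lA. H3K4me1 stayed at the positions downstream of the start site: the peak 0.2 kb downstream of the start site in aNPC measured 391 bp, its overlapping peaks at the later stages 405 and 451 bp, and the larger one in the gene body 1360, 1102 and 1061 bp. A narrow promoter H3K4me1 peak upstream of the start site stayed too, 0.3 kb away in aNPC (259 bp), 0.4 kb in eA (237 bp) and 0.3 kb in lA (216 bp). In aNPC 4 H3K4me1 peaks lay between 4.0 and 5.9 kb upstream, and none of them overlapped an H3K4me1 peak in lA. The neighbouring gene 4930529M08Rik had both marks at its promoters at all stages, but its H3K27ac lay at start sites outside this window, and its promoter within the window had H3K4me1 alone.

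**Figure D3:**
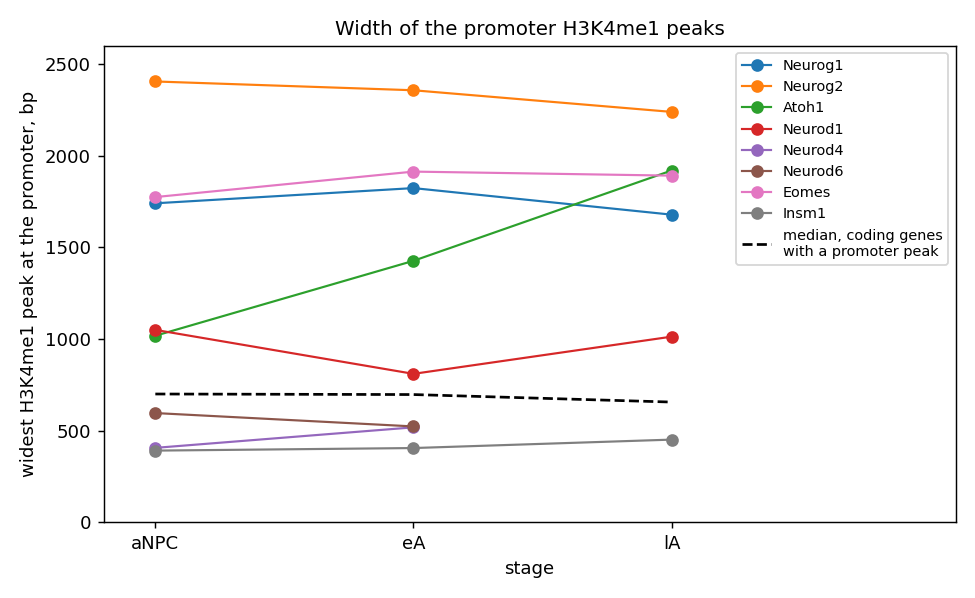
Width in bp of the widest H3K4me1 peak at the promoter of each gene with such a peak, by stage, with lines joining the stages of a gene. The dashed line is the median of the coding genes with a promoter H3K4me1 peak (700, 697 and 656 bp). Neurog2, Eomes, Neurog1, Atoh1 and Neurod1 were above it at all stages and Insm1 below it at all stages.

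The promoter H3K4me1 peaks of the members ranged widely in width. Neurog1, Neurog2 and Eomes had peaks of at least 1679 bp at each stage, and Atoh1 had 1018, 1427 and 1920 bp. Neurod1 lay between, with 1050, 810 and 1013 bp. Insm1, Neurod4 and Neurod6 had peaks of at most 596 bp wherever they had one. The median over the members with a promoter peak was 1034, 1118 and 1786 bp at the successive stages, beside 700, 697 and 656 bp over the coding genes with one. The narrow peaks of Neurod4 and Neurod6 were absent in lA and so did not enter that median. All these widths are of single called peaks, so a stretch split into several peaks, as at Atoh1 in aNPC, counts as narrower. Widths were not recomputed with nearby peaks joined.

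In the windows as a whole, there were 15, 13 and 7 H3K27ac peaks and 52, 49 and 44 H3K4me1 peaks at the aNPC, eA and lA stages. Every member had H3K4me1 in its window at every stage, beside 83.1, 84.1 and 84.4% of coding genes. H3K27ac was in the windows of 6 members in aNPC (74.5% of coding genes), 5 in eA (76.1%) and 3 in lA (75.4%), the last being Neurod2, Neurod6 and Atoh1. The median density of H3K27ac over the members was 0.226, 0.230 and 0 peaks per 10 kb at the 3 stages, with coding genes at 0.392, 0.466 and 0.463. For H3K4me1 it was 1.15, 1.15 and 1.13, with coding genes at 0.869, 1.01 and 1.08. The H3K4me1 lists grew from aNPC to lA while the H3K4me1 count of the members was lower in lA. With equally long lists the members had 52, 40 and 34 H3K4me1 peaks, and 15, 13 and 7 of H3K27ac.

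By position, 3 of the H3K27ac peaks in aNPC lay at the promoter of a member, 2 at that of a neighbouring gene and 10 were distal. In eA these numbers were 2, 4 and 7, and in lA 0, 2 and 5. Distal H3K27ac in lA was thus limited to the windows of Neurod2, Neurod6 and Atoh1. In the window of Neurod2 the peaks 10.0 and 17.5 kb upstream were nearer to the start site of Ppp1r1b. Of the H3K4me1 peaks, 14, 11 and 8 lay at members' promoters and 34, 35 and 32 were distal. In the whole lists 16027 of 154238, 15609 of 185478 and 15254 of 208333 H3K4me1 peaks lay at a coding promoter. Over the stages, 81 of 101 distal H3K4me1 peaks and 15 of 22 distal H3K27ac peaks had the start site of the member as the nearest coding start site, and the rest were closer to a neighbour. Each window is built around a gene, which favours its promoter and its start site, so nothing particular to the members is read from these counts.

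Sites with H3K4me1 and without H3K27ac made up most of the H3K4me1 peaks around these genes. In aNPC 41 of 52 H3K4me1 peaks (78.8%, 95% Wilson interval 66.0 to 87.8%) overlapped no H3K27ac peak of the same stage, beside 61.1% of all H3K4me1 peaks. In eA it was 39 of 49 (79.6%, 66.4 to 88.5%) beside 64.0%, and in lA 38 of 44 (86.4%, 73.3 to 93.6%) beside 66.3%. The intervals cover counting error only, and neighbouring peaks of a gene are not independent. In windows of 50 kb on each side the share was 71.4%, 68.9% and 77.4%, closer to that of all peaks. At the members' own promoters 11 of 14 peaks lacked H3K27ac in aNPC, 8 of 11 in eA and 8 of 8 in lA, beside 37.0, 33.7 and 46.2% of all H3K4me1 peaks at coding promoters. Among distal peaks 27 of 34, 30 of 35 and 28 of 32 lacked it, beside 63.9, 66.8 and 67.9% of all distal H3K4me1 peaks. Conversely, 1 of 15, 0 of 13 and 1 of 7 H3K27ac peaks had no H3K4me1 at the same stage (6.67, 0 and 14.3%), beside 18.0, 13.5 and 17.8% of all H3K27ac peaks.

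**Figure D4:**
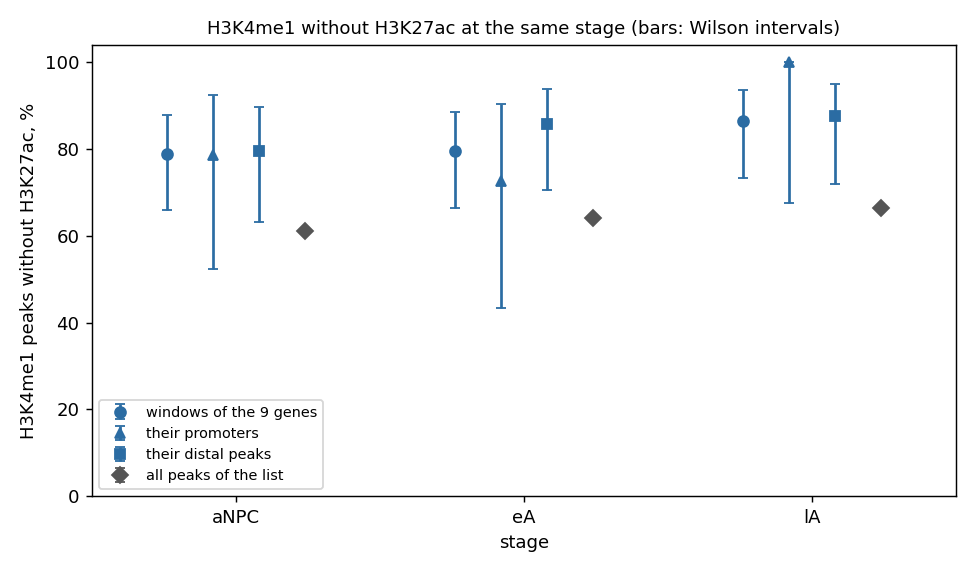
Percentage of H3K4me1 peaks that overlap no H3K27ac peak of the same stage, for the windows of the 9 genes (circles), their promoters (triangles), their distal peaks (squares) and all H3K4me1 peaks of the list (grey diamonds); bars are 95% Wilson intervals. The windows stood at 78.8, 79.6 and 86.4% and all peaks at 61.1, 64.0 and 66.3%.

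The 52 H3K4me1 peaks of aNPC were followed through the later stages. Of these, 36 (69.2%, 55.7 to 80.1%) overlapped no H3K27ac at any stage, beside 44.5% of all aNPC H3K4me1 peaks. H3K27ac was present at all stages at 4 (7.69%, 3.03 to 18.2%, beside 22.3%), in aNPC only at 5 (9.62%, beside 10.3%), and in eA or lA but not in aNPC at 5 (9.62%, 4.18 to 20.6%, beside 16.6%). In lA 35 of the 52 still overlapped H3K4me1 (67.3%, 53.8 to 78.5%, beside 72.8%), and in eA 42 did (80.8%, beside 83.1%). H3K4me1 at all stages without H3K27ac at any was the state of 17 (32.7%, 21.5 to 46.2%, beside 22.0%).

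The genes differed in how their aNPC sites fared. None of the 2 sites of Neurog1 and none of the 4 of Neurog2 was ever acetylated, and for Neurod4 the count without acetylation was 6 of 7. For Insm1 it was 7 of 10, for Neurod2 7 of 12, for Atoh1 3 of 4, for Neurod6 3 of 5, for Eomes 3 of 6 and for Neurod1 1 of 2. H3K4me1 was kept in lA at all sites of Neurod1, Neurog1, Atoh1 and Eomes, at 9 of 12 for Neurod2, at 3 of 5 for Neurod6, at 2 of 4 for Neurog2, at 5 of 10 for Insm1 and at 2 of 7 for Neurod4. New H3K4me1 peaks, absent from aNPC, numbered 9 in eA and 11 in lA, with 5 and 2 at Neurod6 and 1 and 3 at Neurod1 and at Eomes. None of them was acetylated at its own stage, beside 14.0% of all such new H3K4me1 peaks in eA and 17.1% in lA. With so few peaks a count of none is near these shares. Several of the new lA peaks also overlap H3K4me1 peaks of eA, so the 2 counts are not independent.

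The sequence under the H3K4me1 summits was richer in G and C than that of all H3K4me1 peaks. In the 200 bp around the summit, the median GC content at the 3 stages was 55.2, 53.5 and 55.0%, beside 49.0, 48.5 and 48.0% over all H3K4me1 peaks. CACGCG lay in 7 of 52 of these summit regions in aNPC (13.5%, beside 1.36% of all), 4 of 49 in eA (8.16%, beside 1.23%) and 6 of 44 in lA (13.6%, beside 0.999%). They belonged to Neurog1, Neurog2, Atoh1 and Insm1. GC content moves with this motif: in summit regions with at least 60% GC it was in 5 of 20, 4 of 18 and 6 of 17, beside 10.1, 9.30 and 9.06% of all such regions. The same sites were counted at more than 1 stage, so these counts are not independent. CAGATG lay in 25.0, 16.3 and 11.4% of the summit regions, beside 18.5, 17.7 and 17.0%, and CAGCTG in 19.2, 14.3 and 22.7%, beside 16.8, 15.3 and 13.8%. TTGGCA lay in 9.62, 4.08 and 6.82%, beside 17.3, 16.0 and 16.1%.

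The promoters themselves had a median GC content of 53.5% and a median CpG observed over expected ratio of 0.59, beside 49.3% and 0.41 over all coding genes. The CpG ratio was highest at Insm1 (0.89, the 97.1st percentile of coding genes), followed by Neurog2 (0.72), Atoh1 (0.69), Neurog1 (0.62), Eomes (0.59) and Neurod1 (0.49). It was lower at Neurod2 (0.36), Neurod4 (0.22) and Neurod6 (0.21). The 6 genes with the higher ratios were those with promoter H3K4me1 at all stages, and the part of base composition in that was not tested.

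Other genes of the same pathway were counted at their promoters, where the shares of all coding genes were 50.6, 53.2 and 48.2% for H3K27ac and 55.4, 53.6 and 52.7% for H3K4me1. Several of the counts that follow are near these shares, and nothing particular to a list is read from them. Of 12 related factors, such as other proneural and differentiation factors, H3K27ac was at 1, 2 and 1 (aNPC, eA, lA), and H3K4me1 at 8, 9 and 7. H3K4me1 without H3K27ac was found at 7, 7 and 6 of these, at 3, 2 and 3 of 8 antagonists and at 2, 2 and 3 of 11 downstream genes, beside 11.8, 9.85 and 13.5% of coding genes. The 3 E-protein partners (Tcf3, Tcf4 and Tcf12) had both marks at all stages. Of the 8 antagonists, 5 were acetylated at each stage, though not the same 5 (Hey1, Id1 and Id2 at all stages), and H3K4me1 was at 8, 7 and 7. Id1, which sequesters E proteins, had both marks throughout, Id3 had H3K4me1 alone, and Hes5, a Notch target, likewise had H3K4me1 alone. Hes1 had H3K27ac in aNPC and lA, not in eA, and H3K4me1 in aNPC only. Of the 11 genes known as downstream of proneural factors, 7, 7 and 6 were acetylated and 6, 7 and 9 had H3K4me1. Among these, Dll1, a Notch ligand, had H3K27ac at all stages and H3K4me1 in eA and lA, and Hes6, which opposes Hes1, had both marks at all stages.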

How the data were processed

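The submitters' processing notes name mm9, Bowtie and SAMtools. Per the methods of the study, the authors aligned the reads of each library uniquely, merged the alignments of the 2 replicates of a stage and mark, and ran MACS2 with default settings and no input library. The −log10 values deposited by the authors are −log10 q at the summit of each peak. The summit is an offset from the peak start in the deposited lists. The score and fold columns were not used.

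The 6 lists were used without their mitochondrial peaks (4 or 5 per list). Genes and coding start sites came from GENCODE release M1 on NCBIM37 (mm9), and sequences from the genome of that build. Peaks shared a site when they overlapped by at least 1 bp. Shares have 95% Wilson intervals, which cover counting error only. Depth is unknown, and no test was made, since each list is a single merged sample. The joins were tested on simulated peaks. Python 3.11.15, NumPy 2.4.6, SciPy 1.17.1 and matplotlib 3.10.9 were used.

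All 9 members, the neighbours with a promoter in a window and 6 genes of the pathway lists were named by rule. So were, at each member, the promoter peaks and most of the strongest distal peaks. Of the coding genes that reach into a window without a promoter there, Cerkl is named above. The others, 4930422G04Rik at Neurog2 and Ralgapa2 at Insm1, are not described. A further gene that the rule names is not reported here. Further peaks, the partners, Hey1, Id2, S100b, Aldh1l1, Slc1a3, Slc1a2, Aldoc and Cd44 were named after their values had been seen. The members, marker lists, pathway lists and motifs were chosen with earlier results of these data known. Alternatives were a −log10 q of at least 5, lists of equal length, windows of 5 or 50 kb, a promoter of 1 kb on either side, overlap by summit and the joining of peaks within 1 kb. RNA-seq, knockdown libraries and 8 samples whose labels conflict were not analysed here.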

Additional observations from a re-analysis of the deposited data

How the results depend on the processing

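Of 87 values recomputed under 7 alternatives for 17 results, 67 stayed within 1.5 times the count reported or within its interval. The window length moved most of the others. With 5 kb on each side the H3K27ac peaks in aNPC, eA and lA numbered 8, 4 and 1, the H3K4me1 peaks 30, 25 and 20, the aNPC H3K4me1 peaks never acetylated 23, and the lA share without H3K27ac was 95.0%. With 50 kb the counts were 34, 40 and 24 for H3K27ac and 98, 106 and 93 for H3K4me1, and 58 of the 98 in aNPC were never acetylated. With peaks within 1 kb joined, there were 33 H3K4me1 peaks in aNPC and 29 in lA, and 4 H3K27ac peaks in lA. Of the 33 in aNPC, 21 were never acetylated, and 69.7% lacked H3K27ac in aNPC, beside 78.8% as reported. The shares over all peaks were not recomputed under the alternatives. A promoter of 1 kb on either side gave 2 members with H3K27ac in eA. H3K27ac peaks were fewer in lA than in aNPC under each alternative run for them. The order of aNPC and eA was not kept: eA had more H3K27ac and H3K4me1 peaks than aNPC with 50 kb, more H3K4me1 peaks with peaks joined (35 against 33), and a lower share without H3K27ac with 50 kb (68.9 against 71.4%), with a −log10 q of at least 5 (78.9 against 80.0%) and with equally long lists (75.0 against 78.8%). No paired analysis was possible because both replicates are merged in each list, and for the same reason no replicate could be left out. Depth and input are not part of the lists, so an uncalled peak cannot be told from a weak one.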
